A study of Rattus norvegicus with 7 samples.

Results

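The miRNAs described here are the 5 guide strands of the miR-99/100 and miR-125 families on the array, rno-miR-99a, rno-miR-99b, rno-miR-100, rno-miR-125a-5p and rno-miR-125b-5p. The prefix, which stands for the rat, is left out below. They were picked by name, as the miRNAs encoded next to let-7 genes, and make up 5 of the 677 rat miRNAs on the array. The rule uses names and no measured value, although earlier results of these data were known when it was set. Their levels in pancreatic islets were compared between adult and older rats, and then with those of the let-7 miRNAs from the same gene clusters.

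All islets came from male Wistar rats, an outbred strain, and the labels give age as the only difference between the groups. The older group held replicates 2, 4, 10 and 16, which were 12 months old, and the younger group replicates 9, 11 and 13, which were 3 months old. Each rat had an array of its own. Islets were isolated with collagenase, and total RNA was labelled with Cy3 and hybridised to single-colour Agilent miRNA arrays. The comparison asks which islet miRNAs differ between these ages. Whole islets hold endocrine cells together with vessels, stroma and some exocrine tissue, so a signal is the sum over these cells. In such bulk RNA, fewer cells of a type and less RNA per cell cannot be told apart.

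In mammals the miR-99/100, let-7 and miR-125 genes lie together in clusters that have been copied during evolution, and each copy holds a member of each family. The miRNAs of a cluster can be cut from a shared primary transcript, although each hairpin is processed and each mature strand decays on its own. miR-125 is the relative of the worm miRNA lin-4, which together with let-7 times development. The miR-99/100 miRNAs are known to repress the kinase mTOR and the receptor IGF1R, both part of growth factor signalling.

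A miRNA finds its targets mainly through its seed, bases 2 to 8, which is shown in capitals in the mature sequences below so that the families can be told by eye. The sequences and coordinates are those of RefSeq for rat assembly GRCr8 and all lie on the plus strand. The let-7 partner of each cluster is shown beneath. miR-99a-5p is not printed, because its mature sequence was missing from the RefSeq sequences used.
rno-miR-99b-5p: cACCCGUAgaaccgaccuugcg
rno-miR-100-5p: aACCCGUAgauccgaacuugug
rno-miR-125a-5p: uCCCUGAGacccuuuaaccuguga
rno-miR-125b-5p: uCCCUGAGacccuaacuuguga
rno-let-7a-5p: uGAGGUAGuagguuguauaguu
rno-let-7c-5p: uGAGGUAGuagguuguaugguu
rno-let-7e-5p: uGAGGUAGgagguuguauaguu

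The miR-99/100 seed, ACCCGUA, was the same in miR-99b-5p and miR-100-5p, which differ at 4 of 22 bases. Counted from the 5′ end, with the base of miR-99b-5p first, these are C1A, A11U, C16A and C21U. miR-125a-5p and miR-125b-5p share the seed CCCUGAG and their first 13 bases, and are 24 and 22 bases long. The third mature rat miRNA with the miR-125 seed, miR-351, was not detected on any of the 7 arrays. The let-7 seed, GAGGUAG, is that of 9 mature rat miRNAs in the table, 8 of which are on the array as let-7a, let-7b, let-7c, let-7d, let-7e, let-7f, let-7i and miR-98.

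On chromosome 1, Mir99b, Mirlet7e and Mir125a lie close together. There are 95 bases between the hairpins of Mir99b and Mirlet7e and 353 between those of Mirlet7e and Mir125a, all inside the span of Spaca6. Mature miR-99b-5p is at chr1:67350070-67350091, let-7e-5p at chr1:67350243-67350264 and miR-125a-5p at chr1:67350689-67350712. Each of these 3 is listed for a single gene in the table, which lies in this cluster. Whether their probes also bind relatives, such as let-7a, which differs from let-7e at 1 base, was not tested.

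The other clusters are spread out further. On chromosome 11, Mir99a and Mirlet7c1 are 639 bases apart and Mir125b2 follows after 44366 bases, with all 3 inside the span of LOC103693508. On chromosome 8, Mir100 and Mirlet7a-2 are 6828 bases apart and Mir125b1 follows after 44737 bases, inside the spans of Mir100hgl and Lnc215. miR-100-5p is at chr8:50798307-50798328, and miR-125b-5p is listed at chr11:29732588-29732609. As both Mir125b1 and Mir125b2 are in the annotation, the miR-125b-5p signal may come from chromosome 8, chromosome 11 or both. let-7a-5p and let-7c-5p are each listed for 2 genes, of which only Mirlet7a-2 and Mirlet7c1 belong to these clusters.

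The arrays detected 278 to 296 miRNAs in the 12-month-old rats and 246 to 272 in the 3-month-old rats. The islet endocrine miRNAs miR-375, miR-7a and miR-7b were detected on all 7 arrays. Signal was higher at 12 months across the array, with a median log2 difference of 0.79 over the 272 miRNAs tested before any normalization, so the ages were compared after quantile normalization. It gives every array the same distribution of values and removes any array-wide change in miRNA content together with differences in labelling. After it, 4 of the 5 mesenchymal marker miRNAs were higher at 12 months and all 3 acinar ones lower at an unadjusted limma p below 0.05. Over all 272 miRNAs tested, 25 were higher and 34 lower at that threshold. Of the other lists, 2 of 4 leukocyte, 1 of 2 endothelial and the 1 neuronal miRNA tested were higher, and no endocrine or erythroid one was called. None of the 7 mesenchymal and acinar calls passed the threshold after adjustment. The neuronal miR-124 did, with a log2 difference of 5.42, but the neuronal sum at 3 months was below 0, so the floor entered this value. The summed mesenchymal signal before normalization was 2629 to 3645 units at 12 months and 736 to 1711 at 3 months, and the acinar one was 149 to 1451 and 887 to 1722. Of the markers, 4 of 5 mesenchymal and all 3 acinar ones were detected on all 7 arrays, and the part of these cells in the values below was not tested.

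All 5 miRNAs of the miR-99/100 and miR-125 families were detected on all 7 arrays. After normalization none of them passed the test for a difference between 12 and 3 months. At an unadjusted limma p below 0.05, 0 of the 5 were called, beside 21.7% of all 272 miRNAs tested. After Benjamini-Hochberg adjustment it was also 0 of 5, beside 1.47% of those tested. The ages overlapped for all 5, while 17.3% of the miRNAs tested had ages that did not overlap. For 5 members these shares amount to few calls, and the intervals below give the differences that 7 arrays leave possible.

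**Figure D1:**
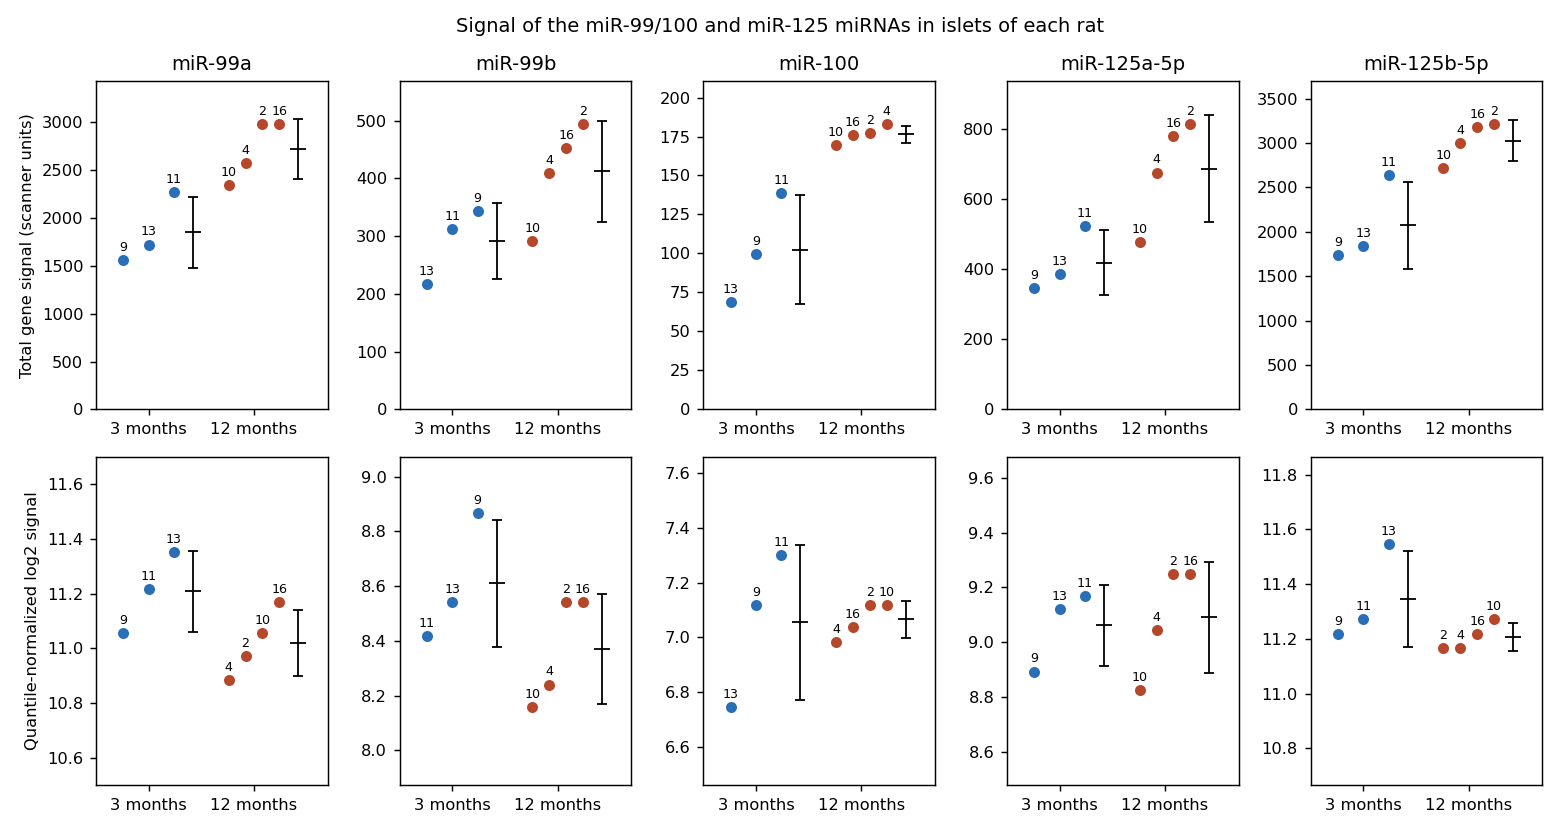
Each point is 1 rat, numbered by its replicate, with 3-month-old rats in blue and 12-month-old rats in red. The upper row shows the total gene signal in scanner units and the lower row the quantile-normalized log2 signal, and the black bars give the mean and SD of each age. In the upper row most 12-month-old rats lie above the 3-month-old ones, and in the lower row the ages overlap in all 5 panels.

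miR-99a is encoded on chromosome 11 with let-7c. Its total gene signal was 1557, 2267 and 1722 units in the 3-month-old replicates 9, 11 and 13. In the 12-month-old replicates 2, 4, 10 and 16 it was 2979, 2577, 2343 and 2981 units. On this unnormalized scale the ages did not overlap, although 12-month-old replicate 10 lay close to 3-month-old replicate 11. The normalized log2 signal was 11.06, 11.22 and 11.35 at 3 months and 10.97, 10.88, 11.06 and 11.17 at 12 months. The ages overlapped here, and the order of the means was turned. The mean was 11.02 ± 0.12 (SD, n = 4) at 12 months and 11.21 ± 0.15 (SD, n = 3) at 3 months, a log2 difference of -0.19 (95% interval -0.52 to 0.15) with a limma adjusted p of 0.540.

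miR-99b, from the cluster on chromosome 1, was the miRNA of the 5 with the widest interval. Its signal was 344, 313 and 217 units in 3-month-old replicates 9, 11 and 13, and 494, 410, 292 and 452 units in 12-month-old replicates 2, 4, 10 and 16. The ages overlapped, since replicates 9 and 11 of the younger rats were brighter than replicate 10 of the older ones. Normalized, the younger rats had 8.87, 8.42 and 8.54 and the older rats 8.54, 8.24, 8.16 and 8.54. Replicate 9 was the highest of all 7. The log2 difference was -0.24 (95% interval -0.65 to 0.17, limma adjusted p = 0.523), from means of 8.37 ± 0.20 (SD, n = 4) and 8.61 ± 0.23 (SD, n = 3).

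miR-100, encoded on chromosome 8 with let-7a, had signals of 99.9, 139 and 69.0 units in 3-month-old replicates 9, 11 and 13. The 12-month-old rats gave 177, 183, 170 and 176 units. The older rats lay close together and above all younger rats, whose values spread over a wider range. After normalization the values were 7.12, 7.30 and 6.74 at 3 months and 7.12, 6.98, 7.12 and 7.04 at 12 months. The 4 older rats now lay inside the range of the 3 younger ones. The means, 7.07 ± 0.07 (SD, n = 4) and 7.05 ± 0.28 (SD, n = 3), differed by 0.01 on the log2 scale (95% interval -0.37 to 0.39, limma adjusted p = 0.970).

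miR-125a-5p lies in the same cluster as miR-99b. It gave 346, 523 and 385 units in 3-month-old replicates 9, 11 and 13 and 814, 675, 477 and 779 units in 12-month-old replicates 2, 4, 10 and 16. Only replicate 10 of the older rats fell inside the range of the younger ones. The normalized log2 values were 8.89, 9.17 and 9.12 at 3 months and 9.25, 9.04, 8.82 and 9.25 at 12 months, so the older rats included both the lowest and the highest value. The difference was 0.03 (95% interval -0.35 to 0.41, limma adjusted p = 0.953), with means of 9.09 ± 0.20 (SD, n = 4) and 9.06 ± 0.15 (SD, n = 3).

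miR-125b-5p, encoded in the clusters on chromosomes 8 and 11, gave 1744, 2638 and 1845 units at 3 months and 3216, 3002, 2716 and 3176 units at 12 months. The ages did not overlap on this scale, again with replicates 10 and 11 next to each other. Normalized, the values were 11.22, 11.27 and 11.55 in the younger rats and 11.17, 11.17, 11.27 and 11.22 in the older ones. The older rats lay in a narrow band, and 3-month-old replicate 13 was above all others. The means were 11.21 ± 0.05 (SD, n = 4) and 11.35 ± 0.18 (SD, n = 3), with a difference of -0.14 (95% interval -0.46 to 0.18, limma adjusted p = 0.651).

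In linear terms, the level at 12 months was 0.878 times that at 3 months for miR-99a (95% interval 0.696 to 1.11) and 0.848 times for miR-99b (0.639 to 1.12). It was 0.908 times for miR-125b-5p (0.726 to 1.14), 1.01 times for miR-100 (0.774 to 1.31) and 1.02 times for miR-125a-5p (0.786 to 1.33). Differences inside these intervals were not excluded with 7 arrays. Exact permutation tests over the rats, whose smallest two-sided p with 4 against 3 rats is 0.0571, gave 0.171 for miR-99a and 0.286 for miR-125b-5p. For the other 3 miRNAs the exact permutation p was 0.343 (miR-99b), 0.743 (miR-125a-5p) and 1 (miR-100).

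The spread among rats of the same age was below that of the median miRNA for all 5 after quantile normalization. The residual SD, on the log2 scale, was 0.117 for miR-125b-5p, 0.132 for miR-99a, 0.183 for miR-125a-5p, 0.187 for miR-100 and 0.214 for miR-99b, against a median of 0.271 over the 272 miRNAs tested. Of these 272, 19 had a smaller residual SD than miR-125b-5p and 90 a smaller one than miR-99b. The let-7 list had a median residual SD of 0.158. The 5 miRNAs were among the brighter ones, at rank 21 to 134 of 677 on the arrays, and dim miRNAs have larger SDs from noise. The part of brightness in the low spread was not tested. All 5 lay below the median in 20 of 24 other ways of processing, but only 1 did with normexp background correction (median 0.148), 2 without the detection filter, 3 with scaling to miR-7a and 4 with the 75th percentile of all miRNAs. Within the row of the slide that held replicates 2, 4 and 9, the age difference was -0.13 for miR-99a, -0.48 for miR-99b and -0.05 for miR-125b-5p. Within the other row it was -0.17, -0.13 and -0.16 for the same 3 miRNAs. For miR-100 the row values were -0.07 and 0.06, and for miR-125a-5p 0.25 and -0.11, so the sign differed between the rows for these 2. The age difference was not shown to differ between the rows for any of the 5, with a limma adjusted p of 0.986 for each, but the intervals were wide, since the first row held a single younger rat. For miR-99b the second row exceeded the first by 0.35 (95% interval -0.59 to 1.28).

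No member of the let-7 family, which holds the partners of these miRNAs, passed the test either. Of the 8 let-7 family miRNAs tested, 0 were called at an unadjusted limma p below 0.05, 3 lay above 0 and 5 below, and their log2 differences ran from -0.06 to 0.17 with a median of -0.02. The median was -0.14 over the 5 miR-99/100 and miR-125 miRNAs, of which 2 lay above 0 and 3 below, and 0.06 over all 272 miRNAs tested. let-7c, the partner of miR-99a, had a log2 difference of -0.03 (limma adjusted p = 0.953). let-7a, the partner of miR-100, had 0.10 (limma adjusted p = 0.853). let-7e, from the chromosome 1 cluster, had -0.06 (limma adjusted p = 0.943).

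The opposite strands of the hairpins, which are mostly degraded when the guide strand is loaded, were not all detected. miR-100*, miR-125b* and miR-125b-3p were not detected on any array. miR-99b* was detected in all 4 older and 2 of the 3 younger rats, at 4.31 to 9.44 units where detected. miR-99a* gave 16.2 to 32.3 units and miR-125a-3p 30.5 to 101 units, and both were detected on all 7 arrays. None of the 3 tested was called at an unadjusted limma p below 0.05. The log2 differences were 0.13 (miR-99a*), -0.21 (miR-125a-3p) and 0.86 (miR-99b*), the last with a 95% interval of -0.54 to 2.26.

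**Figure D2:**
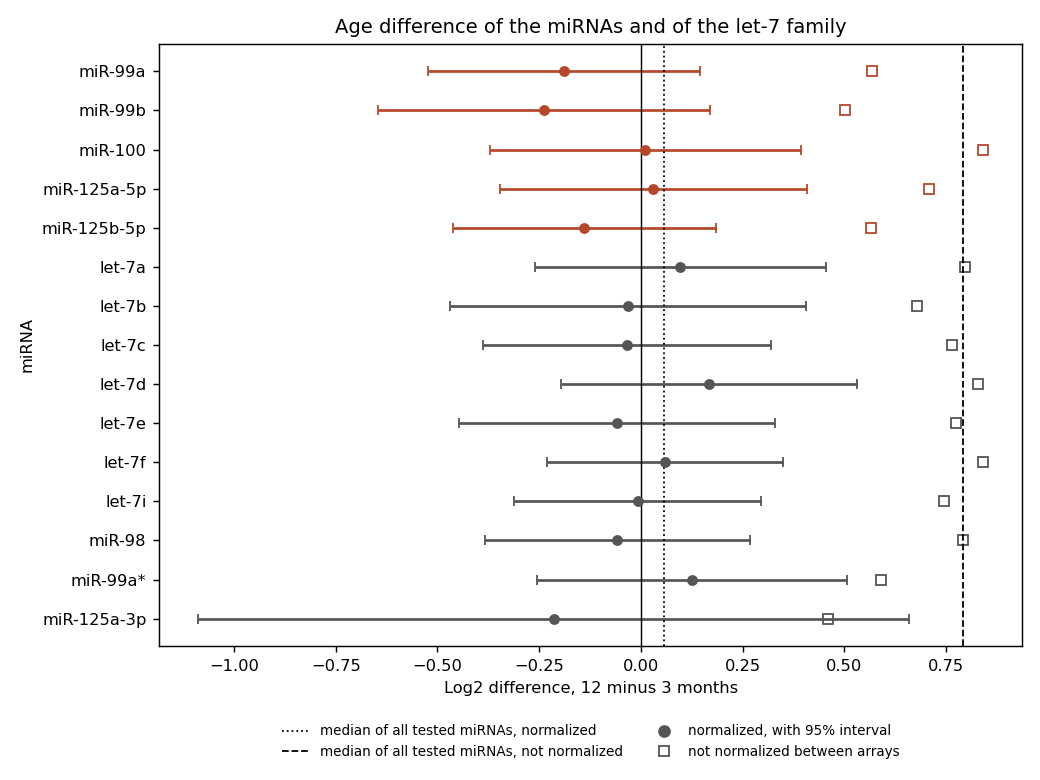
The horizontal axis is the log2 difference, 12 minus 3 months, of the 5 miRNAs (red), the let-7 family and the opposite strands detected on all 7 arrays (grey). Filled circles with 95% intervals are normalized values and open squares are values without normalization between arrays. The intervals of the normalized values all include 0, and the squares lie between 0.46 and 0.84, around or below the dashed line at 0.79, the median of all miRNAs tested.

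Without normalization between arrays, all 5 miRNAs were higher at 12 months, by 0.84 for miR-100, 0.71 for miR-125a-5p, 0.57 for miR-99a, 0.57 for miR-125b-5p and 0.50 for miR-99b on the log2 scale. The limma adjusted p was 0.0286 for miR-100 and 0.0435 for miR-125a-5p, so 2 of the 5 were called, beside 62.9% of the miRNAs tested. It was 0.0661, 0.0669 and 0.125 for miR-99a, miR-125b-5p and miR-99b. The ages did not overlap for 3 of the 5, miR-99a, miR-100 and miR-125b-5p, with higher values at 12 months, as for 48.2% of those tested. Relative to the array-wide median of 0.79, 4 of the 5 rose less and miR-100 rose by more.

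The ratio of 2 miRNAs on the same array does not depend on how arrays are scaled to each other. Its level reflects the brightness of the probes and was not read, but its change between rats was. Of 18 pairs planned, 14 had both miRNAs detected on all 7 arrays, of which 9 were cluster partners, 3 were relatives within a family and 2 were strands of a hairpin. None of the 14 log2 ratios differed between the ages after adjustment over the pairs, with adjusted p values of 0.48 and above from exact permutation tests. As the smallest p these tests allow is 0.0571, no ratio could have passed the threshold.

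The ratio of miR-99a to let-7c was the only one of the 14 with ages that did not overlap. With no age difference, a ratio separates the ages with a probability of 0.0571, and 14 ratios were compared. Its log2 value was -2.20, -2.42 and -2.45 in 3-month-old replicates 9, 11 and 13 and -2.57, -2.60, -2.49 and -2.57 in 12-month-old replicates 2, 4, 10 and 16. All older rats lay below all younger ones, with 12-month-old replicate 10 and 3-month-old replicate 13 next to each other. The means differed by -0.20 on the log2 scale, with an exact permutation p of 0.0571, the smallest possible, and an adjusted p of 0.48. The ratio of miR-125b-5p to let-7c, whose ages overlapped, differed by a similar -0.20 (exact permutation p = 0.114, adjusted p = 0.48). That of miR-125b-5p to let-7a differed by -0.23 (exact permutation p = 0.114) and that of miR-99b to let-7e by -0.27 (exact permutation p = 0.571). The ratio of miR-125a-5p to let-7e differed by -0.07 and that of miR-100 to let-7a by 0.04. A difference of this size was therefore not particular to miR-99a and let-7c.

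The ratio of miR-99a to miR-125b-5p had the lowest SD of the 14 across rats. It was -0.16, -0.22 and -0.10 on the log2 scale in the younger rats and -0.11, -0.22, -0.21 and -0.09 in the older ones. The means of the ages differed by 0.00196, and the SD over the 7 rats was 0.0587, which is a spread of 4.15% around their ratio. Between these rats the signal itself ranged from 1557 to 2981 units for miR-99a.

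The ratio of miR-125a-5p to let-7e was nearly as steady, with an SD of 0.0636 over the 7 rats. With spots averaged on the log2 scale it had the lower SD, 0.0548 against 0.0972 for miR-99a over miR-125b-5p, and with quantile-normalized values the higher, 0.142 against 0.0854. It was -2.76, -2.83 and -2.74 in the younger and -2.83, -2.77, -2.85 and -2.92 in the older rats. The difference of -0.07 between the ages had an exact permutation p of 0.171 (adjusted p = 0.48).

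miR-99b, from the same short stretch of chromosome 1 as these 2, kept to its partners in 6 of the 7 rats. The log2 ratio of miR-99b to miR-125a-5p was -0.72, -0.72, -0.71 and -0.78 in the older rats and -0.74 and -0.83 in 3-month-old replicates 11 and 13. In 3-month-old replicate 9 it was -0.01. The ratio of miR-99b to let-7e was also apart in that rat, at -2.77, against -3.49 to -3.71 in the other 6. With all rats, miR-99b over miR-125a-5p differed by -0.21 between the ages (exact permutation p = 0.8). Without replicate 9 the difference was 0.05.

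The shift in that rat was seen with both probes of miR-99b, but not to the same extent. The log2 ratio of the brighter probe to miR-125a-5p was -0.64 in replicate 9 and -1.11 to -1.22 in the other 6 rats. For the dimmer probe it was -1.51 against -2.70 to -2.90. Both probe ratios share miR-125a-5p, so they do not show that miR-99b alone moved. The ratios of miR-99a and miR-125b-5p to let-7c were also highest in replicate 9, 0.29 and 0.32 above their medians. So were those of miR-125b-5p and miR-100 to let-7a, by 0.20 and 0.24. miR-141 and miR-210 kept to miR-99b over all 7 rats, with SDs of the log2 ratio of 0.0633 and 0.0786, the lowest of 237 miRNAs. As they were picked for this likeness with replicate 9 included, they show only that the shift was not in miR-99b alone. The brighter probe carried 64.6% of the miR-99b signal in replicate 9, the lowest share of any rat, and up to 76.7% in the others. The 10 spots of a probe on an array varied by 3.61 to 11.3% (coefficient of variation) for miR-99b. The summed signals before normalization of 6 of the 7 marker lists (endocrine, acinar, mesenchymal, leukocyte, erythroid and endothelial) lay inside the range of the other rats in replicate 9, and the neuronal list was at its lowest, below 0. Divided by each array's 75th percentile, the erythroid sum was the highest of the 7 rats in replicate 9, at 4.98 against 1.57 to 4.44 in the others. The part of these cells in the miR-99b shift was not tested.

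miR-100 also kept to a partner in all rats but 1. The log2 ratio of miR-100 to miR-125b-5p was -4.18, -4.04, -4.00 and -4.17 in the older rats and -4.13 and -4.25 in 3-month-old replicates 9 and 11. In replicate 13 it was -4.74. Both probes of miR-100 were lowest in that rat, at -4.83 against -4.16 to -4.37 for the brighter and -8.76 against -7.26 to -8.02 for the dimmer. The dimmer probe was faint, at 4.25 to 17.7 units. Replicate 13 was also the dimmest array, with a 75th percentile of 37.4 units, against 45.1 to 73.8 in the others, and 246 miRNAs detected. Before normalization the mesenchymal, endothelial, leukocyte and endocrine lists were there at their lowest summed signal of the 7 rats, 736, 1017, 142 and 26727 units, and the acinar list at its highest, 1722 units. Divided by each array's 75th percentile, the mesenchymal, endothelial and leukocyte sums were still the lowest and the acinar sum the highest, but the endocrine sum was not, at 714 against 478 to 927 in the others. The part of these cells in the low miR-100 signal was not tested.

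**Figure D3:**
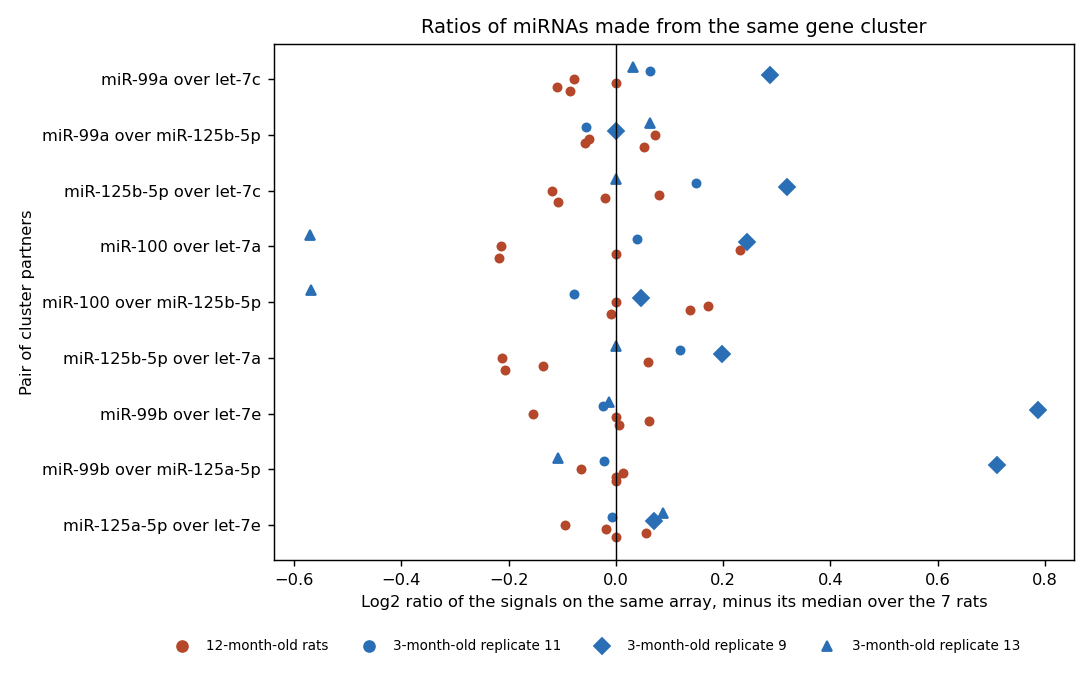
The horizontal axis is the log2 ratio of 2 miRNAs of the same gene cluster on an array, minus the median of that ratio over the 7 rats. Each point is 1 rat, with 3-month-old replicate 9 as a diamond and replicate 13 as a triangle. The 2 ratios of miR-99b reach 0.71 and 0.79 in replicate 9 and those of miR-100 reach -0.57 in replicate 13, while miR-99a over miR-125b-5p stays within 0.07 of its median.

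Relatives within a family were compared in the same way. Over the 7 rats the SD of the log2 ratio was 0.284 for miR-99a over miR-100, 0.284 for miR-99a over miR-99b and 0.186 for miR-125a-5p over miR-125b-5p. These ratios changed with age by -0.27, 0.07 and 0.14, with exact permutation p values of 0.343, 0.8 and 0.343. None of the 3 SDs was as low as those of miR-99a over miR-125b-5p and miR-125a-5p over let-7e, the lowest of the cluster ratios. The other cluster ratios had SDs from 0.136 (miR-99a over let-7c) to 0.312 (miR-99b over let-7e), so relatives and cluster partners were not set apart. The SDs of the relatives also depended on the rats. With a rat left out they fell to as low as 0.129, 0.174 and 0.153 in the same order. Cross-hybridisation between these relatives was not tested.

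The likeness of each of the 5 miRNAs to all 237 other miRNAs detected on all arrays was described by the SD of the log2 ratio over the 7 rats, where a low SD means that the signals rose and fell together. The values share arrays and array-wide brightness, and dim miRNAs have larger SDs from noise, so they are given without a test. For miR-99a the nearest of the 237 was miR-125b-5p (0.0587), followed by its own opposite strand miR-99a* (0.0847) and miR-25 (0.0893). For miR-125b-5p the nearest were miR-99a, miR-99a* (0.111) and miR-345-5p (0.114). For miR-125a-5p they were its cluster partner let-7e (0.0636), the let-7 relative miR-98 (0.0745) and miR-30c (0.0797). The median SD over the 237 was 0.332, 0.330 and 0.299 for these 3 miRNAs. The place of miR-99a* was not stable. It moved to rank 27 for miR-99a and rank 72 for miR-125b-5p with averaged spots, and to rank 32 and rank 40 with normalized values.

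miR-99b and miR-100 were nearest to miRNAs from elsewhere. miR-99b was most like miR-141 (0.0633), a miRNA of the miR-200 family that is typical of epithelial cells, then the hypoxia-responsive miR-210 (0.0786) and miR-500 (0.112). Its partners miR-125a-5p and let-7e came at rank 78 and rank 100 of 237. Without 3-month-old replicate 9 the nearest was miR-324-5p (0.0399), and without 12-month-old replicate 10 it was miR-210 (0.0643). miR-100 was most like miR-423* (0.115), the endothelial miR-126 (0.116) and miR-27a (0.124). This order was not stable, since miR-423* moved to rank 98 with averaged spots, miR-126 to rank 33 and miR-27a to rank 68 with normalized values, and the nearest miRNA was a different one for each rat left out, remaining miR-423* only without 12-month-old replicate 16. Its partners miR-125b-5p and let-7a were at rank 45 and rank 95. miR-126 was 1002, 1245 and 1726 units in 3-month-old replicates 13, 9 and 11 and 2137 to 2743 units in the older rats. It was lowest in replicate 13, the dimmest array, as were miR-100, miR-141, miR-210, miR-500, miR-27a and miR-423*, so this does not set miR-126 apart.

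The ranks of these partners depended on which rats were included, and the rats named here were singled out after their values had been seen. Without 3-month-old replicate 9, miR-125a-5p moved to rank 3 for miR-99b (SD 0.0466) and let-7e to rank 15 (0.0719), and miR-99b became the nearest of all 237 to miR-125a-5p. Without 3-month-old replicate 13, miR-125b-5p moved to rank 3 for miR-100 (0.0948) and let-7a to rank 38 (0.204). Without 12-month-old replicate 10 they moved the other way, to rank 93 and rank 123. let-7c was at rank 12 for miR-99a (0.136) and moved to rank 4 without replicate 9 (0.0709). The nearness of miR-99a and miR-125b-5p did not depend on any rat in this way. Its SD was 0.0552 to 0.0643, and the rank 1 to 3 for miR-99a and 1 to 2 for miR-125b-5p, whichever rat was left out. For miR-125a-5p, let-7e was at rank 1 to 5 (SD 0.0455 to 0.0694) with a rat left out. It was at rank 5 without 3-month-old replicate 9 and without 12-month-old replicate 10.

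**Figure D4:**
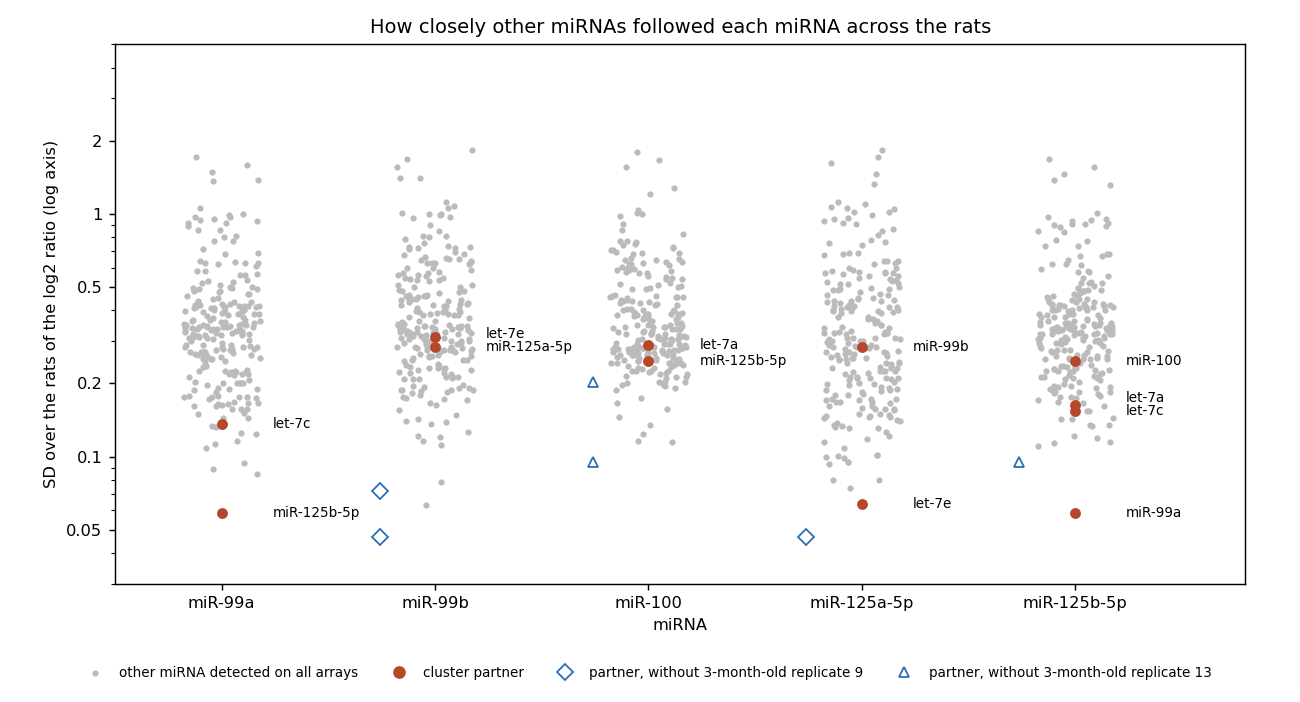
The vertical axis, on a log scale, is the SD over the rats of the log2 ratio between the miRNA named below and each other miRNA detected on all 7 arrays (grey). Red points are partners from the same gene clusters, and open symbols give the partners of miR-99b without 3-month-old replicate 9 (diamonds) and of miR-100 without replicate 13 (triangles). miR-125b-5p and let-7e lie at the bottom of the columns of miR-99a and miR-125a-5p, and the partners of miR-99b drop from 0.283 and 0.312 to 0.0466 and 0.0719.

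Each of the 5 miRNAs was read by 2 probes with 10 spots each, and the scanner software sums them. The brighter probe gave 95.9 to 96.9% of the miR-125b-5p signal, 89.6 to 93.8% of the miR-100 signal and 87.3 to 89.5% of the miR-125a-5p signal. For miR-99a it gave 66.1 to 66.7%, nearly the same share in all rats. The probes of a miRNA went the same way with age before normalization. They rose by 0.57 and 0.56 on the log2 scale for miR-99a, 0.58 and 0.32 for miR-99b, and 0.69 and 0.84 for miR-125a-5p. For miR-125b-5p they rose by 0.56 and 0.75 and for miR-100 by 0.81 and 1.23, so the dimmer probe moved more in these 2 and in miR-125a-5p, and less in miR-99b. No spot of any array was saturated.

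**Figure D5:**
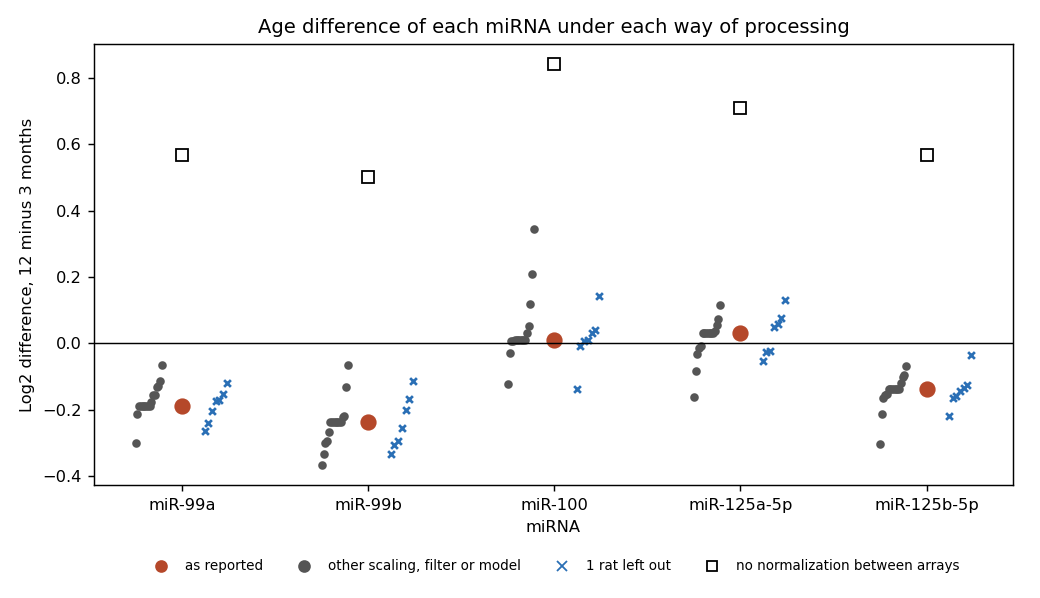
The vertical axis is the log2 difference, 12 minus 3 months, of each miRNA. The red circle is the value given above, grey points are other scalings, filters and models, crosses leave out 1 rat each, and open squares have no normalization between arrays. miR-99a, miR-99b and miR-125b-5p lie below 0 under all normalized settings, and miR-100 and miR-125a-5p lie on both sides of 0.

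The direction of the small differences held for 3 of the 5. miR-99a, miR-99b and miR-125b-5p were lower at 12 months in 23 of 24 other ways of processing each, with the values without normalization as the exception. miR-100 was higher in 20 and lower in 4, and miR-125a-5p was higher in 16 and lower in 8. These counts overstate how far the directions were tried. Changing only the filter, the floor, the intensity trend or the test left each difference as it was, as did quantile normalization over the tested miRNAs alone. The settings with a rat left out share most of their rats. With any normalization between arrays, none of the 5 passed the adjusted threshold, and the lowest limma adjusted p was 0.319, for miR-99b.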

How the data were processed

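Islet RNA of 7 male Wistar rats was measured on single-colour miRNA arrays, and the rats were grouped by the age in the labels. The authors deposited each array as Agilent Feature Extraction (version 10.7.3.1) output, with background-subtracted intensity on a linear scale, raw median intensity with its background, and a detection flag per miRNA. They also deposited a matrix of quantile-normalized log2 values for 307 miRNAs, which rank as the total gene signals do and were used as an alternative. Arrays have no read depth, and precision is limited by their number.

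The total gene signal of 677 rat miRNAs was set to at least 1, log2-transformed and quantile normalized over all of them. A miRNA was tested if all arrays of an age, or of both, detected it. These 272 miRNAs were analysed with lmFit and eBayes in limma (version 3.58.1, R version 4.3.3), with Benjamini-Hochberg adjustment over all 272. The study's methods name Student's test, which was run as an alternative. The fit was tested on simulated data. Single miRNAs and log2 ratios were tested with two-sided exact permutation tests over the 35 splits of the rats (scipy version 1.17.1), in which the p of the nearer tail is doubled. Since each array is a separate rat, p values set the age difference against the spread between rats of the same age. Differences between rats and between arrays cannot be told apart in that spread. The limma p values also draw on the spread of all 272 miRNAs.

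The members, the pairs and the lists of let-7 and cell type miRNAs were chosen with earlier results of these data known. The miRNAs named are the 5 members, their opposite strands, the let-7 family and, for each member, the 3 with the lowest SD of the log2 ratio, with marker miRNAs where a value touches a result. Cell type lists were endocrine (miR-375, miR-7a, miR-7b), acinar (miR-216a, miR-216b-5p, miR-217), mesenchymal (miR-143, miR-145, miR-199a-5p, miR-199a-3p, miR-214), leukocyte (miR-142-3p, miR-142-5p, miR-223, miR-150; miR-155 was not used), erythroid (miR-451, miR-144), endothelial (miR-126, miR-126*) and neuronal (miR-124, miR-9). Sequences and gene positions came from RefSeq tables of GRCr8 and no array coordinate was used. The alternatives cover signal summary, background correction, scaling, filter, floor, variance model, slide row, the authors' matrix, and leaving out each rat.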

Additional observations from a re-analysis of the deposited data

Results flagged for a closer look

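Of 22 measures checked in the 4 rats of 12 months, in 2 a rat lay apart from the others by more than Dixon's 95% limit for 4 values. Chance gives this for about 1 in 20 such measures. The log2 ratio of miR-99b to miR-125a-5p was -0.78 in 12-month-old replicate 16 and -0.72 to -0.71 in the other 3 rats, a gap of 0.837 of the whole range. That range was small beside the distance of 3-month-old replicate 9, at -0.01. The normalized log2 signal of let-7c was 13.55 in 12-month-old replicate 2 and 13.69 in all of the other 3, so the gap was the whole range (ratio of 1). Quantile normalization gives equal ranks on different arrays the same value.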

How the results depend on the processing

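No paired analysis was possible because the 2 ages share no replicate numbers. With 7 arrays the intervals of the age differences reach from 0.639 to 1.33 times, and exact tests of the ratios could not pass the threshold. The 59 unadjusted and 4 adjusted calls over all miRNAs tested became 36 and 15 with scaling to miR-7a, 193 and 171 without normalization, and 89 and 48 with array weights. Adjusted calls were 2 with normexp, 21 and 10 with the 75th percentile of the miRNAs detected on all arrays and of all miRNAs, 16 with cyclic loess, 1 over miRNAs detected on all arrays and 8 in the deposited matrix. Leaving out a rat gave 4 to 10 adjusted calls, with 10 without 12-month-old replicate 10, and 41 to 88 unadjusted ones.

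Without normalization the log2 differences were 0.57 (miR-99a), 0.50 (miR-99b), 0.84 (miR-100), 0.71 (miR-125a-5p) and 0.57 (miR-125b-5p), and only miR-100 and miR-125a-5p were called. miR-100 turned to -0.028 with scaling to miR-7a and -0.12 with array weights, and lay between -0.14 (without 3-month-old replicate 13) and 0.14 with a rat left out. Averaging spots on the log2 scale gave 0.34 for miR-100 (limma adjusted p = 0.385). miR-125a-5p turned to -0.032 with averaged spots, -0.0091 with normexp, -0.015 with the 75th percentile of detected miRNAs, -0.16 with miR-7a and -0.084 with cyclic loess, and lay between -0.053 (without 3-month-old replicate 9) and 0.13 with a rat left out. A block for the slide's rows changed no call or direction of the 5.

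Of the ratios, miR-100 over let-7a turned to -0.21 with normexp and -0.086 in the matrix (-0.19 to 0.21 with a rat left out) and miR-100 over miR-125b-5p to -0.00015 with normexp. miR-125a-5p over let-7e turned to 0.044 in the matrix. miR-99a over miR-125b-5p turned to -0.092 with averaged spots, -0.035 with normexp and -0.031 in the matrix (-0.027 to 0.032), and miR-99a over miR-99a* to 0.25 and 0.29 with the first 2 of these (-0.060 to 0.022). With a rat left out, miR-99a over miR-99b gave -0.18 to 0.22, miR-125a-5p over miR-125a-3p -0.10 to 0.64, and miR-99b over miR-125a-5p -0.36 to 0.052, the last without 3-month-old replicate 9. None of these ratios passed the threshold in any setting, and the cause of the turns was not tested. miR-125b-5p stayed among the 3 nearest to miR-99a, and miR-99a among the 2 nearest to miR-125b-5p, with averaged spots and with normalized values. let-7e was at rank 1 for miR-125a-5p with averaged spots and at rank 29 with normalized values. Leaving out rats for these ranks was chosen after seeing the data.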
